A study of Homo sapiens with 6 samples.

Results

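The S100 proteins and the annexins are families of calcium-binding proteins that act at membranes and, for several members, outside the cell. Their transcripts were compared in HCT116, a human colorectal carcinoma cell line, between cultures labelled Rab27B KO and cultures labelled wild type. The members are the rows of both deposited tables whose gene symbol starts with S100 or ANXA. They number 21 of 7681 listed genes, 11 S100 genes and 10 annexin genes, and each symbol equals the RefSeq symbol of its gene ID. Of the 6 cultures, 3 are labelled Rab27B KO and 3 are labelled wild type. The former are described as having RAB27B, the gene of a vesicle GTPase, deleted by CRISPR/Cas9. The RNA level of RAB27B, given below, goes against that label. All 6 cultures were HCT116 cells, untreated and grown for 48 hours. The labels do not say whether the edited cells are a single clone.

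S100 proteins are small proteins with a pair of EF-hands, the loops that hold calcium, and most work as dimers. Calcium exposes a surface on them that docks to target proteins, annexins among them. Annexins carry repeats that bind acidic phospholipids when calcium is present, and they take part in vesicle traffic, membrane repair and the linking of membranes to the actin cortex. Both families lack signal peptides as a rule, and the members found outside cells leave by unconventional routes. In the gut epithelium several of them are abundant.

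Only the authors' comparison was analysed here: per gene a q-value and a log2 ratio with Rab27B KO on top and wild type below, with no values per culture. The spread between replicates and the depth are therefore unknown, no standard error can be given, and the order of genes by fold is a description. Every gene in the tables has a q-value below 0.05. The authors' deposited table has RAB27B itself 36.7-fold higher in the cultures labelled Rab27B KO, which goes against the label, so each direction below is that of the cultures as labelled. An RNA level does not measure an edited protein.

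Most listed S100 and annexin transcripts were higher in the cultures labelled Rab27B KO. Of the 21 members, 19 rose and 2 fell in the authors' deposited table, where 50.7% of all listed genes were higher and 49.3% lower. RefSeq has 33 protein-coding genes of these families, and 63.6% of them were listed while 12 were in neither table and have no value, beside 37.9% of the 20056 protein-coding genes overall. How many genes the authors tested is unknown, so this last share is not a share of tested genes. The median log2 fold change was 1.13 over the 11 S100 genes and 0.51 over the 10 annexins, beside 0.12 over all listed genes in the authors' deposited table. A log2 rise of 1 or more was listed for 6 S100 genes and 2 annexins, beside 6.11% of all listed genes. At the same size, 1 annexin and none of the S100 genes fell, beside 6.5% of all listed genes. In either direction, 9 of the 21 members reached that size, beside 12.6% of all listed genes. These are bulk cultures, so more cells of a kind and more RNA per cell cannot be told apart.

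**Figure D1:**
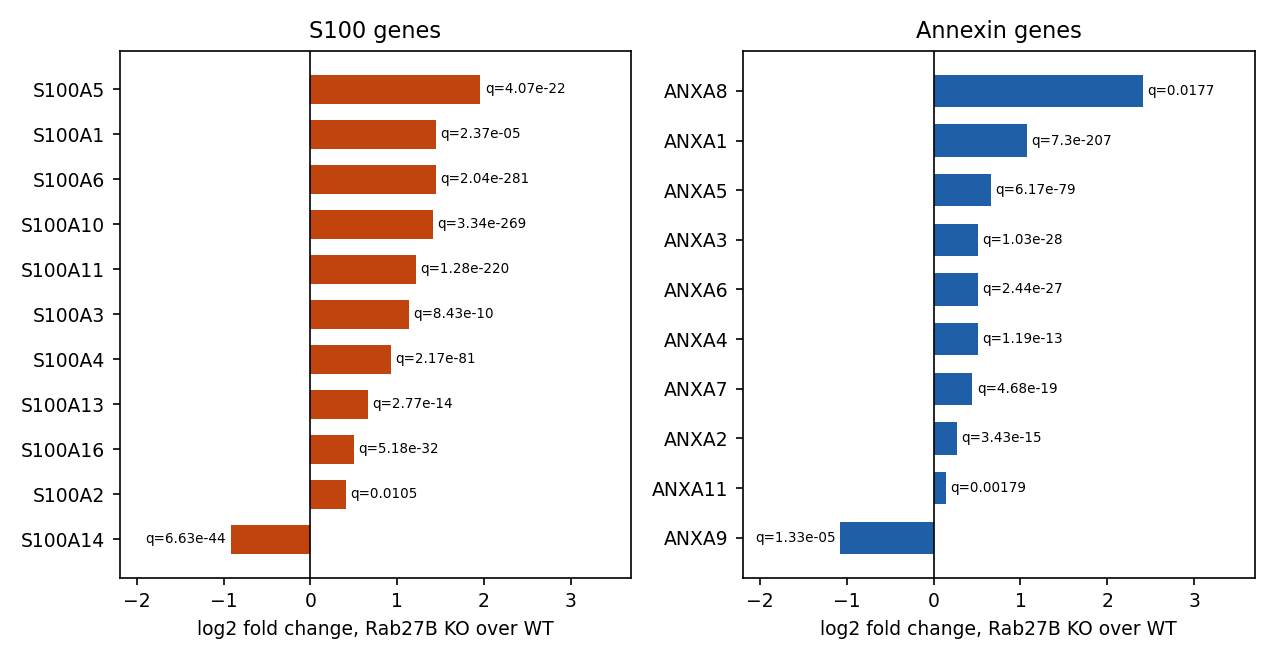
Log2 fold change of Rab27B KO over WT (horizontal axis) for the 11 S100 genes on the left and the 10 annexins on the right, with the q-value beside each bar. S100 bars run up to 1.96. Among the annexins ANXA8 reaches 2.41 and ANXA1 1.07, and the other higher bars lie between 0.14 and 0.66. S100A14 and ANXA9 point to the left.

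The S100 genes with the smallest q-values encode the widely expressed members of the family. S100A6 (calcyclin; gene ID 6277), which binds several annexins and the calcyclin-binding protein, was 2.72-fold higher with q = 2.04e-281 in the authors' deposited table. S100A10 (p11; gene ID 6281), whose EF-hands no longer bind calcium and which forms a tetramer with annexin A2, was 2.65-fold higher with q = 3.34e-269 in the authors' deposited table. S100A11 (gene ID 6282), a partner of annexin A1, was 2.33-fold higher with q = 1.28e-220 in the authors' deposited table. Together with ANXA1 these are the 4 members among the 50 genes with the smallest q-values, ranked 19, 23, 34 and 40 of 7681. S100A4 (gene ID 6275), which binds non-muscle myosin and is known from studies of metastasis, was 1.90-fold higher with q = 2.17e-81 in the authors' deposited table.

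The promoters of S100A6, S100A10 and S100A4 are shown here beside that of S100A14, the S100 gene that fell, as RefSeq sequence of build GRCh38.p14. Each window runs from 250 bases before to 50 bases after the annotated start site, 5′ to 3′ on the strand of the gene. Capitals mark every match on either strand to the core promoter element TATAAA, to the AP-1 motif TGANTCA or to the GC box, whose letters are GGGCGG.
S100A6 promoter (chr1:153535942-153536241, minus strand): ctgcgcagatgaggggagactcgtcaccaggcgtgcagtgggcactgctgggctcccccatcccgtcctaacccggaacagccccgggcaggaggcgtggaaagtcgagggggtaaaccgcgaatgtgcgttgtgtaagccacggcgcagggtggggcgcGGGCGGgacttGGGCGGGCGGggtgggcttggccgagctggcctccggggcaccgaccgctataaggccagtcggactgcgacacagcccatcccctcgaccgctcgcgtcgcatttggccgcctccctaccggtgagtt
S100A10 promoter (chr1:151993810-151994109, minus strand): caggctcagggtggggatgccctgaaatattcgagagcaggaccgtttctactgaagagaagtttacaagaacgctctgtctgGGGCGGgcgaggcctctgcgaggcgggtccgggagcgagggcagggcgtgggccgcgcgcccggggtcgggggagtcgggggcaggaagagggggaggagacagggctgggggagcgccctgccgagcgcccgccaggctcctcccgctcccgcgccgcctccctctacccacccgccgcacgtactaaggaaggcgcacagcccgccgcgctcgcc
S100A4 promoter (chr1:153545757-153546056, minus strand): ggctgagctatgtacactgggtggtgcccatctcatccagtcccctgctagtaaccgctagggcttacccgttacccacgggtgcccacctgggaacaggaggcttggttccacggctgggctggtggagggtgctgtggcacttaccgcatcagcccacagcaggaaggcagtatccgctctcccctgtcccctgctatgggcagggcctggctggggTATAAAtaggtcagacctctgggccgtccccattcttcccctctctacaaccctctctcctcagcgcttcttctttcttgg
S100A14 promoter (chr1:153616276-153616575, minus strand): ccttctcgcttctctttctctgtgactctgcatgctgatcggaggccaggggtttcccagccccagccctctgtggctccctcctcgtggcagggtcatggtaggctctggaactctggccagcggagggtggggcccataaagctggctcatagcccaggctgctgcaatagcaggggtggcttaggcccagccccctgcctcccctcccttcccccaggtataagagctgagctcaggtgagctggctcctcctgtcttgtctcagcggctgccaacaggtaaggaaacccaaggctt

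The S100A6 window holds GC boxes at positions -90, -79 and -75 from the start site, the last 2 overlapping, and S100A10 holds 1 at -167. S100A4 has the element TATAAA at -31. The S100A14 window has none of the 3 motifs. The same holds for the windows of S100A1 and ANXA3, which rose, and of ANXA9, which fell.

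S100 genes known for narrow expression in normal tissue rose as well, with larger q-values. S100A5 (gene ID 6276), described in olfactory neurons, had the largest S100 change, 3.89-fold higher with q = 4.07e-22 in the authors' deposited table. S100A1 (gene ID 6271), a regulator of calcium handling in muscle, was 2.73-fold higher with q = 2.37e-05 in the authors' deposited table. S100A3 (gene ID 6274), a protein of the hair cuticle, was 2.19-fold higher with q = 8.43e-10 in the authors' deposited table. The folds of S100A1 and S100A3 lie near those of S100A6 and S100A11, while their q-values are far larger. Read numbers behind them are unknown.

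The other S100 rises were smaller. S100A13 (gene ID 6284), which takes part in the unconventional export of FGF1, was 1.58-fold higher with q = 2.77e-14 in the authors' deposited table. S100A16 (gene ID 140576), found in many tissues, was 1.41-fold higher with q = 5.18e-32 in the authors' deposited table. S100A2 (gene ID 6273), a mostly nuclear protein of basal epithelial cells, was 1.33-fold higher with q = 0.0105 in the authors' deposited table, the weakest call among the S100 genes. S100A14 (gene ID 57402), an epithelial S100 protein reported to bind S100A16, went the other way and was 1.89-fold lower with q = 6.63e-44 in the authors' deposited table.

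The listed S100 genes lie on 1 chromosome and mostly next to each other. S100A10 and S100A11 stand at one end of the cluster at 1q21, and 1498 kb further on, S100A6, S100A5, S100A4, S100A3, S100A2, S100A16, S100A14, S100A13 and S100A1 follow within 99.8 kb (chromosome 1, 153534599 to 153634361, GRCh38). Of these 9 genes 8 were higher. The exception, S100A14, has S100A16 on one side at a distance of 1117 bases and S100A13 on the other at 2473 bases, and both neighbours rose. Between S100A11 and S100A9 lie 47 other protein-coding genes, most of them skin barrier genes such as the filaggrin, late cornified envelope and small proline-rich genes, and none of them was in either table. S100A7, S100A7A, S100A8, S100A9 and S100A12, the S100 genes best known from inflamed skin and myeloid cells, were in neither table. Their levels are not analysed here.

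**Figure D2:**
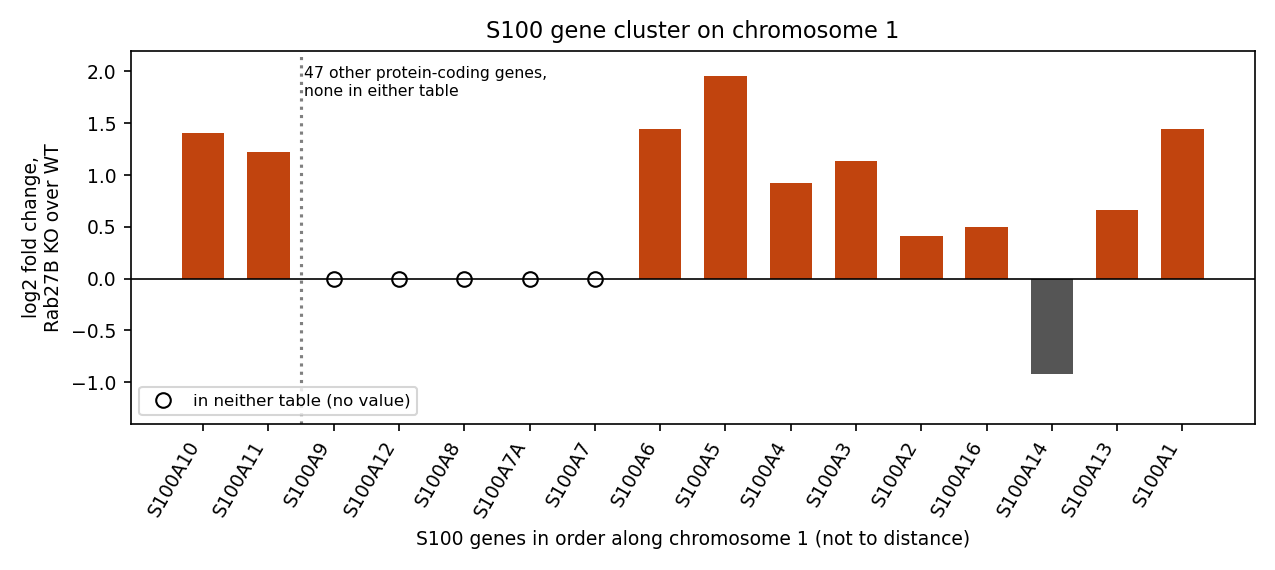
Log2 fold change of Rab27B KO over WT (vertical axis) for the 16 S100 genes of chromosome 1 in their order along it, not to distance. Filled bars are listed genes and open circles mark 5 genes without a value. Every bar points up except that of S100A14 at -0.92.

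Genes around the cluster were listed in both directions equally often. Within 1 Mb on either side of the span from S100A10 to S100A13, 30 other genes were listed, 15 higher and 15 lower, with a median log2 fold change of 0.04. Among the 6 of them with the smallest q-values were TPM3, a tropomyosin, at 0.49 and IL6R, the interleukin-6 receptor, at 1.53 on the log2 scale in the authors' deposited table. HAX1, RAB13 and THEM4 stood at 0.74, 0.53 and 0.88, and the RNA editing enzyme ADAR at -0.37 on the log2 scale in the authors' deposited table. Over the whole of chromosome 1, these 30 included, 57.8% of the 779 listed genes outside both families were higher.

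Some of these genes share sequence on the genome. S100A1 lies within the span of S100A13 on the opposite strand, and the exons overlap by 235 bases, 7.76% of the exonic bases of S100A1 in GENCODE release 29. S100A5 and S100A4, on the same strand, overlap by 65 bases at the ends of their RefSeq spans, though their GENCODE exons share no base. The sources used here do not say whether the counting used strand, so reads in the overlap of S100A1 and S100A13 could have been counted for either gene.

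S100 transcripts are short, and short listed genes were mostly higher in this comparison. The longest coding transcripts of the 11 S100 genes measured 594 to 1218 bases, with a median of 784, beside 3540 over the other listed genes. Of the 418 other listed genes in that range of length, 78.5% were higher, with a median log2 fold change of 0.32, and 11.5% had a log2 rise of 1 or more. The S100 shares were 10 of 11 and 6 of 11, with a median of 1.13. The part of transcript length in the S100 result was not tested. Annexin transcripts measured 1657 to 6965 bases, with only ANXA11 above 2799. In that wide range 50.1% of 5450 other listed genes were higher. The range holds most of the 7385 other listed genes with a length. Its share therefore cannot differ much from that of all listed genes, and the part of length in the annexin result was not tested.

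Of the 9 annexins that rose, 7 had a log2 change under 1. ANXA1 (gene ID 301), an inhibitor of phospholipase A2 and a ligand of formyl peptide receptors, was 2.11-fold higher with q = 7.30e-207 in the authors' deposited table. ANXA5 (gene ID 308), which binds phosphatidylserine and is used as a probe of dying cells, was 1.58-fold higher with q = 6.17e-79 in the authors' deposited table. ANXA3 (gene ID 306), ANXA6 (gene ID 309) and ANXA4 (gene ID 307) had almost the same change, 1.43-fold, 1.43-fold and 1.42-fold higher, with q-values of 1.03e-28, 2.44e-27 and 1.19e-13 in the authors' deposited table. ANXA6 is the annexin with a duplicated core, and ANXA4 is known from the membranes of secretory epithelia. ANXA7 (synexin; gene ID 310), which brings secretory granules together, was 1.36-fold higher with q = 4.68e-19 in the authors' deposited table.

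ANXA2 and ANXA11, which bind S100A10 and S100A6, had the smallest changes of all members. ANXA2 (gene ID 302) was 1.20-fold higher with q = 3.43e-15 in the authors' deposited table. ANXA11 (gene ID 311), which tethers RNA granules to lysosomes, was 1.10-fold higher with q = 0.00179 in the authors' deposited table. Set side by side, the rises of 3 known partner pairs were 2.65-fold for S100A10 and 1.20-fold for ANXA2, 2.33-fold for S100A11 and 2.11-fold for ANXA1, and 2.72-fold for S100A6 and 1.10-fold for ANXA11 in the authors' deposited table. Without a standard error the difference within a pair could not be tested. Reads of ANXA2 can also match its pseudogenes, since the ANXA2P2 transcript is 98.4% identical to it, and S100A11 has near copies in S100A11P1 and S100A11P2, 91.3% and 91.7% identical. None of these pseudogenes was listed, and reads of S100A11 could likewise have been shared.

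The promoters of ANXA1 and ANXA2 are shown because these annexins pair with S100A11 and S100A10 and one rose by far more than the other. Windows, build and capitals are as for the S100 genes.
ANXA1 promoter (chr9:73151615-73151914, plus strand): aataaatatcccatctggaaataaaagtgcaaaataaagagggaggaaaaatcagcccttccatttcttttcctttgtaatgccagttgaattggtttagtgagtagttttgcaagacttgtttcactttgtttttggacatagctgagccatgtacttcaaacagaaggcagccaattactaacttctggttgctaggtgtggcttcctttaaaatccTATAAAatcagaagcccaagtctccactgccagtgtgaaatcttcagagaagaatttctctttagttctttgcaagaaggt
ANXA2 promoter (chr15:60397937-60398236, minus strand): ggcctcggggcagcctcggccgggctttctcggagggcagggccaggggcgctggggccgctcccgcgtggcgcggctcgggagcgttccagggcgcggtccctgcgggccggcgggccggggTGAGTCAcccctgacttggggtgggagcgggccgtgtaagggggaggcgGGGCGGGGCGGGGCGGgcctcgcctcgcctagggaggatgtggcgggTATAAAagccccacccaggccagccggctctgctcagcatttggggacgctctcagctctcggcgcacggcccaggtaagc

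Both windows have TATAAA at -31. ANXA2 also has an AP-1 motif at -127 and 3 GC boxes at -78, -73 and -68, which overlap each other, and ANXA1 has neither motif.

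The largest annexin change, that of ANXA8, came with the weakest call. Among the annexins, only ANXA8 and ANXA11 had a weaker call than ANXA9, the only annexin that fell. ANXA8 (gene ID 653145), an annexin of squamous epithelia that binds late endosomes, was 5.30-fold higher with q = 0.0177 in the authors' deposited table. Its transcript is 99.4% identical to that of ANXA8L1, which was not listed, so reads could have been shared and the value is uncertain. ANXA9 (gene ID 8416), which has lost the usual calcium-binding sites, was 2.11-fold lower with q = 1.33e-05 in the authors' deposited table. ANXA10, ANXA13 and ANXA8L1 were in neither table.

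**Figure D3:**
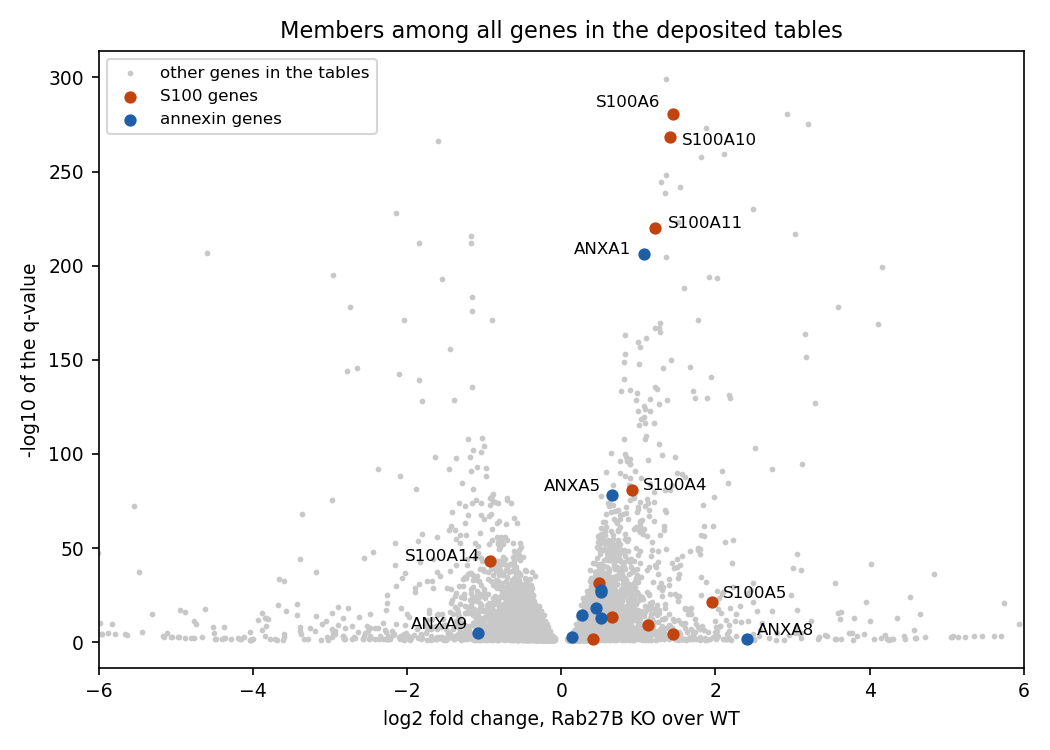
Log2 fold change of Rab27B KO over WT (horizontal axis) against -log10 of the q-value (vertical axis) for the listed genes, with S100 genes and annexins in colour. The 17 genes with a q-value listed as 0 and the 17 with a change beyond 6 are not drawn. S100A6, S100A10, S100A11 and ANXA1 stand high on the right, and ANXA8 lies far right near the bottom.

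Unlike the S100 genes, the listed annexins are spread over 7 chromosomes. ANXA3 and ANXA5 rose although they lie on chromosome 4, where 16.2% of the 296 other listed genes were higher, with a median log2 fold change of -0.43. ANXA2 rose on chromosome 15, where 19.5% of 256 others were higher, with a median of -0.41. On chromosomes 2, 5, 9 and 10, which hold the other rising annexins, between 51.9% and 60.1% of the other listed genes were higher. ANXA9 fell on chromosome 1, where most of the listed genes were higher.

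Promoter motifs were counted over both families. RefSeq windows were found for 20 of 21 members, 29 windows in all, since some genes have several start sites. TGANTCA (AP-1) occurred in 4 of the 29 windows (13.8%), those of S100A2, S100A3, S100A5 and ANXA2, beside 7.71% of all 35116 windows and 5.37% of the windows of listed genes. TATAAA was in 17.2% of the members' windows, 11.5% of all and 6.21% of those of listed genes. GGGCGG was in 44.8% of the members' windows, 45% of all and 66.8% of those of listed genes. ACGTG (hypoxia response element) was in 17.2% of the members' windows, 21.4% of all and 25.1% of those of listed genes. Both strands were searched and each motif was counted on its own. Windows of 1 gene can overlap, and a match is a run of letters, not a shown binding site.

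Receptors, partners and targets of the families were listed in both directions, with 76.9% of the listed ones higher. Of 50 such genes 24 were in neither table and 26 were listed, 20 higher and 6 lower, with a median log2 fold change of 0.24. Over all genes, 37.9% of protein-coding genes were listed and 50.7% of the listed genes were higher, with a median of 0.12. PLAT, the tissue plasminogen activator that the annexin A2 tetramer holds at the cell surface, was 5.60-fold higher with q = 5e-231 in the authors' deposited table. PLAUR, the urokinase receptor, was 4.20-fold higher with a q-value listed as 0 in the authors' deposited table. BSG (basigin), a receptor of extracellular S100 proteins, was 1.46-fold and TAGLN2 (transgelin-2) 1.56-fold higher in the authors' deposited table. CACYBP, the calcyclin-binding protein, stood at a log2 fold change of 0.22, and the calcium channel gene TRPV6, whose protein the S100A10 tetramer binds, at -2.27 in the authors' deposited table. CACYBP and TRPV6 were chosen after their values were seen. AGER, the receptor RAGE, and TLR4 were in neither table.

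Other calcium-binding and calcium-handling genes were also listed in both directions, more often as higher. Of the listed genes, 78.9% of the EF-hand, 69.2% of the C2-domain and 72% of the channel, pump and store genes were higher. The shares over all genes just given apply to them too. Of 62 other EF-hand genes 38 were listed, 30 higher and 8 lower, with a median log2 fold change of 0.38. Among them VSNL1 (visinin-like 1) was 3.51-fold, HPCAL1 2.12-fold, the myosin light chain gene MYL9 2.00-fold and EHD2 1.62-fold higher in the authors' deposited table. C2-domain proteins are the other large group that binds membranes with calcium, and 26 of 51 genes were listed, 18 higher and 8 lower, with a median of 0.33. MYOF (myoferlin), a membrane repair protein, was 1.42-fold and PLCD3 1.42-fold higher, whereas UNC13D was 5.18-fold and SYT7 1.46-fold lower in the authors' deposited table. Calcium channels, pumps and stores had 25 of 41 genes listed, 18 higher and 7 lower, with a median of 0.29. At a log2 change of 1 or more, 4 EF-hand genes rose and 1 fell, and 1 C2 gene rose and 1 fell. Of the channel, pump and store genes 0 rose and 3 fell. Over all listed genes, 6.11% rose and 6.5% fell by that size. These counts are small and were not tested. CALR (calreticulin) was 1.56-fold higher, whereas the Golgi calcium pump gene ATP2C2 was 5.92-fold, ORAI2 1.73-fold and TRPM7 1.53-fold lower in the authors' deposited table. STIM1 and STIM2 stand in both the EF-hand and the channel lists, and MYOF, PLA2G4A, TRPV6, TP63, PDCD6 and PEF1 are likewise in more than 1 list.

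Some markers of other epithelia and cell types were listed in the same comparison. Over all genes, 37.9% of protein-coding genes were listed, and 50.7% of the listed genes were higher, with a median of 0.12. Listed were 70.8% of squamous, 44% of colonic, 25% of fibroblast and endothelial and 15.4% of leukocyte markers. Of 24 squamous epithelium markers 17 were listed, 13 higher and 4 lower, with a median log2 fold change of 1.21. SFN (stratifin) was 2.32-fold, PERP 1.70-fold and the keratin gene KRT16 69.8-fold higher, and KLK7 fell by 0.78 on the log2 scale in the authors' deposited table. None of the 43 other genes of the epidermal differentiation complex on the gene list, which leaves out the listed S100 genes, was in either table. Among 26 leukocyte markers 4 were listed, all higher: CD68 3.51-fold, CD33 3.03-fold, LYZ 2.53-fold and ITGAX 2.00-fold in the authors' deposited table. PTPRC, the pan-leukocyte gene, and the myeloid genes S100A8 and S100A9 were in neither table. Colonic epithelium markers had 11 of 25 genes listed, 6 higher and 5 lower, with a median log2 fold change of 0.32. Of the 4 with the smallest q-values, EPCAM was 2.23-fold, CDH1 2.22-fold and HNF4A 7.82-fold lower and CA2 2.53-fold higher in the authors' deposited table. Fibroblast and endothelial markers had 5 of 20 genes listed, 3 higher and 2 lower, with VIM 8.21-fold, FN1 1.82-fold and COL3A1 3.41-fold higher and COL1A1 1.32-fold and ENG 7.12-fold lower in the authors' deposited table. Summed levels of these markers per culture were not analysed here, and their part in the S100 and annexin result was not tested.

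**Figure D4:**
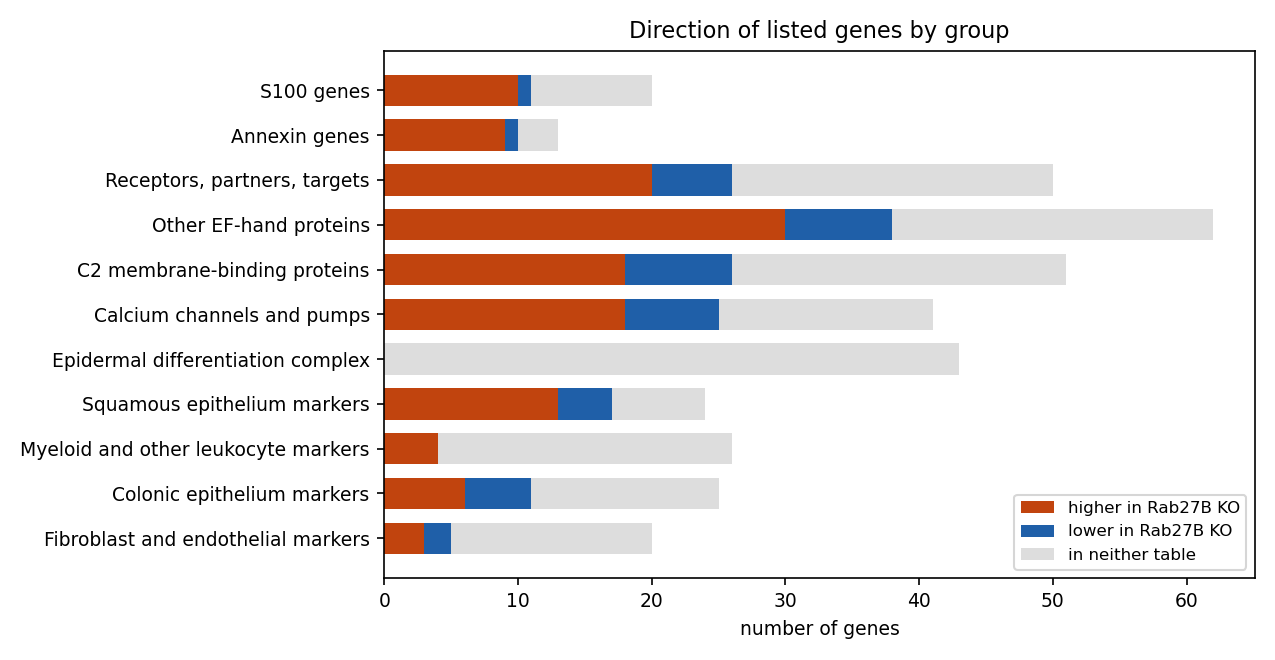
Number of genes (horizontal axis) higher in Rab27B KO, lower in Rab27B KO or in neither table, for both families and 9 gene lists. The S100 and annexin rows have 1 lower gene each. The epidermal differentiation complex row, which leaves out the listed S100 genes, has no gene in either table.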

How the data were processed

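RNA of 3 HCT116 cultures labelled Rab27B KO and 3 labelled wild type was sequenced. Libraries were made on the DNBSEQ platform, per the labels' protocols, and the submitters' processing notes name HISAT, Bowtie2 and GRCh38. The sources used here give no counting, annotation, scaling or test. The 2 deposited tables hold, per the file headers, a q-value and a log2 ratio, Rab27B KO divided by wild type, for each gene. The table of higher genes also has the deposited linear ratio, which matches the log2 column within a relative difference of 4.53e-10. The tables hold only genes with q below 0.05. The test foreseen without values per sample applied: the authors' values, with no test added.

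Members were found by symbol prefix. Gene IDs were matched to RefSeq GRCh38.p14, 7656 of 7681, with 1-based coordinates. Transcript lengths, strands and exon overlaps came from GENCODE release 29, and identities between transcripts from edlib 1.3.9.post1 alignments over the whole shorter transcript. Lower folds were computed from the log2 column. The 9 gene lists (332 genes) were written from general knowledge. The members and lists were chosen with earlier results of these data known. Named were all members, RAB27B and the 4 genes per list with the smallest q-values (all where 5 or fewer were listed). The 6 near the cluster were named likewise. CACYBP and TRPV6 were chosen after their values were seen. Other genes were named without a fold change, as being in neither table or in more than 1 list. Alternatives were q below 0.01 or 0.001, a log2 change of at least 1, RefSeq symbols, family genes only, and members off chromosome 1. The counting and motif search were tested on simulated data. An NF-kB and an interferon-response motif were also searched for at first, and their counts, which had been seen, are not reported here. Python 3.11.15, pandas 2.3.3, numpy 2.4.6 and matplotlib 3.10.9 were used.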

Additional observations from a re-analysis of the deposited data

How the results depend on the processing

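The split of the members kept its direction under the alternatives that gave a count. All of them select among the same deposited log2 values, so the sign of a member could not change. At q below 0.01, 17 members were higher and 2 lower; S100A2 and ANXA8 dropped out. At q below 0.001, 16 were higher and 2 lower, as ANXA11 dropped out too. With a log2 change of at least 1, 8 members were higher and 1 lower, made up of 6 higher and 0 lower S100 genes and 2 higher and 1 lower annexins, because most annexin changes are small. Without the members on chromosome 1, an alternative chosen after seeing the data, 9 were higher and 0 lower, all of them annexins. RefSeq symbols and family genes only gave the main counts, since both select the same members. The median log2 fold change of all members was 0.66, and it stayed at 0.66 at q below 0.01. No paired analysis was possible because the tables hold no values per sample, and for the same reason leaving out a replicate, another scaling or another count test could not be run. The deposited values give no depth, so large folds with large q-values, as for ANXA8, cannot be judged against their read numbers.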
